A study of Homo sapiens with 3 samples.

Results

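The proteasome is the barrel-shaped protease that degrades ubiquitin-tagged proteins, and its subunit genes were followed in THP-1 cells before and after treatment with phorbol myristate acetate (PMA). A gene was included when its symbol in the platform annotation began with PSMA, PSMB, PSMC, PSMD, PSME, PSMF or PSMG followed by a digit and it was no antisense or divergent transcript and no pseudogene. This gave 87 probe sets for 44 genes, out of 19775 genes with a probe set of their own. Of the 44 genes, 42 encode subunits, regulators or assembly chaperones of the proteasome. The other 2, PSMC3IP and PSME3IP1, share the name but are no subunits, and they are given apart. PSMB11, PSMC5, PSMD7 and PSMD13 were not analysed here, and neither were PSMA6 and PSME2, for which the annotation lists only probe sets that it also assigns to a second gene.

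THP-1, an established cell line from a human monocytic leukemia, is widely used because its cells become adherent and macrophage-like when PMA activates protein kinase C. The series holds 3 arrays, 1 per condition: undifferentiated cells kept without PMA, and cells differentiated with 200 nM PMA in 2 schedules, called PMA 3 days and PMA 8 days. In the shorter schedule PMA was present for 24 h and the cells then stayed in PMA-free medium for 3 days. In the longer one it was present for 72 h, before 5 days in PMA-free medium. The routine medium held 10% serum. Medium with 2% serum was given 16 h before RNA isolation, and whether this included the undifferentiated cells is not stated. Time in PMA, time since PMA and time in culture therefore cannot be told apart, and with 1 array per condition no test between conditions was possible and no p-values are given.

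The core particle, called 20S, is a stack of rings. PSMA genes encode the outer alpha rings that gate the channel, and PSMB genes encode the inner beta rings. PSMB5, PSMB6 and PSMB7 carry the constitutive active sites. In immune cells and under interferon-gamma they are replaced by PSMB8, PSMB9 and PSMB10, which form the immunoproteasome and favour peptides that fit MHC class I molecules. The 19S cap recognises, deubiquitinates and unfolds substrates: PSMC genes encode its ATPases and most PSMD genes its other subunits. PSME genes encode alternative caps, PSMF1 an inhibitor of the proteasome, and PSMG genes chaperones that build the core.

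Of the 44 genes 43 were measured, meaning that the brightest probe set, which stands for a gene, lay above a floor of 149.8 signal units on at least 1 array. The floor is the median of all signals, and lower signals were raised to it. PSMA8, a testis-specific alpha subunit, was below the floor on every array, with 79.6 signal units in undifferentiated cells, 58.8 at PMA 3 days and 60.3 at PMA 8 days. The median signal over all 44 genes was 8513 in undifferentiated cells, 9574 at PMA 3 days and 10336 at PMA 8 days. The only error that could be estimated is the disagreement of probe sets for 1 gene, called the probe-set SD below. In log2 units it was 0.43 when PMA 3 days was divided by undifferentiated, 0.44 when PMA 8 days was, and 0.27 between the PMA arrays. It was taken over all genes with several probe sets and covers neither cultures nor labelling.

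The arrays were checked against their label. Of 8 myeloid markers on the array 7 were above the floor in undifferentiated cells and all 8 at both PMA times, and their summed signal was 167955 in undifferentiated cells, 202077 at PMA 3 days and 175547 at PMA 8 days. SPI1, a defining myeloid transcription factor, had 25 units in undifferentiated cells, below the floor, and 162 and 175 units at the PMA times. LYZ and CEBPA were lower on the PMA arrays. LYZ had 62439 units in undifferentiated cells, 36591 at PMA 3 days and 23243 at PMA 8 days, and CEBPA had 13606, 2090 and 3760. ITGAM, CSF1R, FCER1G, TYROBP and PTPRC were higher on both PMA arrays. Summed signals ranged from 472 to 1376 units over the arrays for T and NK cell, B cell, erythroid and epithelial markers. Those of 5 fibroblast markers were 843 in undifferentiated cells, 3506 at PMA 3 days and 3084 at PMA 8 days. Above the floor were 2 of them in undifferentiated cells and 3 at either PMA time, and LUM was below it on all arrays. COL1A1 had 464 units in undifferentiated cells, 2337 at PMA 3 days and 1828 at PMA 8 days, and PDGFRA had 8.48, 923 and 961. In the same order DCN had 147, 159 and 228. COL1A2 went the other way, with 157, 10.1 and 47.1, from above the floor to below it. The part of other cell types in the values below was not tested. The poly-A controls added before labelling stood 0.31 higher at PMA 3 days than in undifferentiated cells (median, log2 scale), so that scaling to them moves every ratio of that comparison down by this amount.

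The sequences around the transcription starts of the immunoproteasome genes PSMB8, PSMB9 and PSMB10 and of PSME1, which encodes a subunit of the cap PA28, are shown because the results turn on these interferon-inducible genes and the proximal promoter is where interferon regulatory factors are known to bind. Each stretch runs from 80 bases before the start to 20 after it, 5′ to 3′, from the RefSeq promoter table of build GRCh38.p14. Capitals mark GAAA, any 2 bases and GAAA again, a core of the interferon-stimulated response element, read on either strand and called the paired GAAA motif below.
PSMB8, chr6:32844028-32844127, minus strand, the second of 2 listed starts: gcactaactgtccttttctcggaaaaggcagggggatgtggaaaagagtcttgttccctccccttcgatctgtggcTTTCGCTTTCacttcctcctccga
PSMB9, chr6:32854112-32854211, plus strand: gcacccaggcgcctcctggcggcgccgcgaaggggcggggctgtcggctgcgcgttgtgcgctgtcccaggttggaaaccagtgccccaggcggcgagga
PSMB10, chr16:67936831-67936930, minus strand: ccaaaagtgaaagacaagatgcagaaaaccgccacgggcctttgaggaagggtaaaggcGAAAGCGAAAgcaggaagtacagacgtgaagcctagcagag
PSME1, chr14:24136114-24136213, plus strand: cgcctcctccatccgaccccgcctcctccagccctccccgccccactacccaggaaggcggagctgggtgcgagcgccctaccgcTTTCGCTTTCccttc
The match began 4 bases before the start in PSMB8, 21 bases before it in PSMB10 and 5 bases after it in PSME1, and none lay in the PSMB9 window.

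The proteasome genes as a whole differed little between the arrays, and no member reached a 2-fold difference in any of the 3 comparisons. At PMA 3 days over undifferentiated, 0 of 43 members were past 2-fold, while 21.1% of the 13306 genes tested were (10.4% higher and 10.7% lower). For PMA 8 days over undifferentiated it was 0 of 43 members, against 18.3% of 13555 genes (9.83% higher and 8.49% lower). Between the PMA arrays it was 0 of 43, against 2.33% of 13051 genes (1.37% higher and 0.958% lower at PMA 8 days). At a threshold of 1.5-fold, 3 members were higher (PSMB9, PSMC4 and PSME3) and 2 lower (PSMB10 and PSMG4) at PMA 3 days, where 17.9% of all genes were higher and 23.8% lower (41.7% either way). At PMA 8 days 6 members were higher over undifferentiated (the same 3 and PSMC2, PSMD1 and PSMD11) and the same 2 lower, where 17.6% and 20.1% of all genes were (37.7% either way). Between PMA 8 days and PMA 3 days no member was past 1.5-fold, against 11.9% of all genes (7.18% higher and 4.76% lower).

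Most members lay close to equal signal. Signals are averages over all cells of a culture, in which fewer cells expressing a gene and less RNA per cell cannot be told apart. For PMA 3 days over undifferentiated 32 of 43 members (74.4%) differed by no more than 1.25-fold, against 36.4% of all genes, and for PMA 8 days over undifferentiated 30 of 43 (69.8%), against 39.2%. The SD of the log2 ratios was 0.35 among members and 1.02 among all genes at PMA 3 days, and 0.35 and 0.97 at PMA 8 days. Restricting the other genes to the 2913 that were at least as bright as the lower quartile of the members (a mean signal of 4519, a limit chosen after the data were seen) left 40.6% of them within 1.25-fold at PMA 3 days and 44.5% at PMA 8 days. Past 2-fold were 18.7% of these bright genes at PMA 3 days and 16% at PMA 8 days over undifferentiated, and 0.79% between the PMA arrays. The median log2 ratio of the members was -0.03 at PMA 3 days and 0.09 at PMA 8 days over undifferentiated, beside medians of -0.12 and -0.07 for all genes. The first of these medians was 0.09 after centring on all genes and -0.34 after scaling to the poly-A controls, and the second stayed between 0.01 and 0.16 under the other scalings, so no direction can be given to the group at PMA 3 days.

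**Figure D1:**
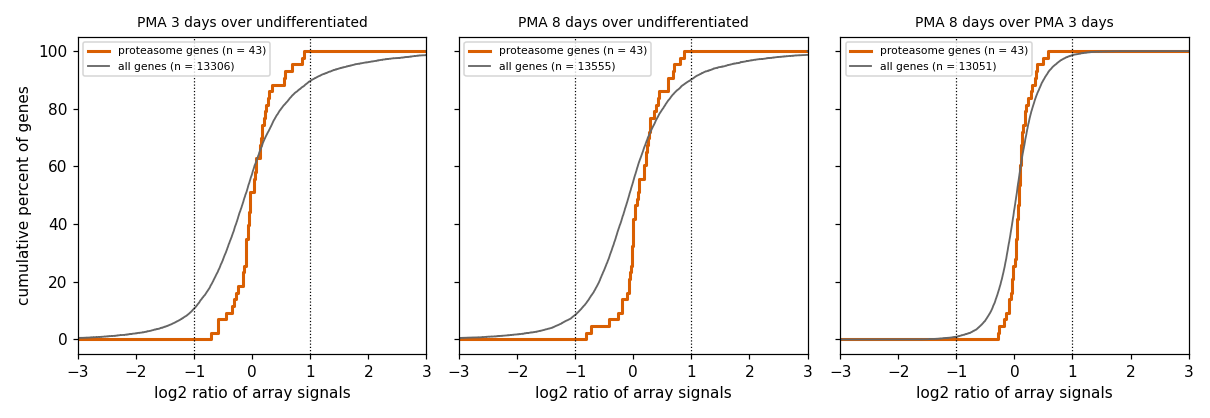
Cumulative percent of genes (vertical axis) against the log2 ratio of array signals (horizontal axis) for proteasome genes and for all genes tested in each of the 3 comparisons, with 2-fold marked by dotted lines. The curve of the 43 proteasome genes is steeper than that of all genes and stays between the dotted lines.

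The 3 catalytic subunits of the immunoproteasome differed in direction. PSMB9, which takes the place of PSMB6 in the beta ring, had 7501 signal units in undifferentiated cells, 13623 at PMA 3 days and 13161 at PMA 8 days. Both PMA arrays were thus above the undifferentiated one, 1.82-fold at PMA 3 days and 1.75-fold at PMA 8 days (log2 ratios 0.86 at PMA 3 days and 0.81 at PMA 8 days). PSMB10, which takes the place of PSMB7, had 13340 units in undifferentiated cells, 8125 at PMA 3 days and 7599 at PMA 8 days. Its PMA arrays were lower, by 1.64-fold at PMA 3 days and 1.76-fold at PMA 8 days (log2 ratios -0.72 at PMA 3 days and -0.81 at PMA 8 days). PSMB8, which takes the place of PSMB5 and carries the chymotrypsin-like activity, had 13248 units in undifferentiated cells, 12660 at PMA 3 days and 13519 at PMA 8 days, with log2 ratios of -0.07 and 0.03. On the 3 arrays it was thus level within the probe-set SD. Each of the 3 genes had 1 probe set, so their values could not be compared within the gene.

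PSMB10 had the lowest log2 ratio over undifferentiated of all members at both times, and PSMB9 the highest after PSME3. A ratio at or above that of PSMB9 was found for 12.5% of all genes tested at PMA 3 days and 12.6% at PMA 8 days. At or below that of PSMB10 were 18.8% at PMA 3 days and 12.6% at PMA 8 days. Both genes differed from undifferentiated cells by more than the probe-set SD at either time. The sign of each held after quantile normalization, centring and scaling to the poly-A controls. With the poly-A scaling PSMB9 was at 0.56 at PMA 3 days and PSMB10 passed 2-fold (log2 ratio -1.02).

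The constitutive catalytic subunits had small differences in 1 direction. PSMB5 had 7210 units in undifferentiated cells, 8144 at PMA 3 days and 8499 at PMA 8 days. PSMB6 had 8702 units in undifferentiated cells, 10641 at PMA 3 days and 10525 at PMA 8 days. PSMB7 had 10298 units in undifferentiated cells, 12379 at PMA 3 days and 14053 at PMA 8 days. The log2 ratios were between 0.18 and 0.29 at PMA 3 days and between 0.24 and 0.45 at PMA 8 days, and PSMB7 at PMA 8 days was the largest. All 3 were above 0 at both times, but at PMA 3 days all 3 were below 0 after scaling to the poly-A controls. All lay within the probe-set SD except PSMB7 at PMA 8 days, at 0.45 against 0.44. A second, dim probe set of PSMB7 gave 460 units in undifferentiated cells, 192 at PMA 3 days and 59.0 at PMA 8 days, the last of them below the floor, and so was lower where the brightest was higher.

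Set against its constitutive partner, each immunoproteasome subunit gave a different answer, and a factor that scales a whole array cancels in such differences. The log2 ratio of PSMB9 minus that of PSMB6 was 0.57 at PMA 3 days and 0.54 at PMA 8 days. That of PSMB10 minus that of PSMB7 was -0.98 at PMA 3 days and -1.26 at PMA 8 days. With the median over its probe sets, the dim one included, PSMB7 itself had -0.50 at PMA 3 days and -0.59 at PMA 8 days, beside -0.72 and -0.81 for PSMB10. PSMB8 minus PSMB5 gave -0.24 at PMA 3 days and -0.21 at PMA 8 days. The means over the 3 pairs were 0.03 for the immunoproteasome subunits and 0.24 for the constitutive ones at PMA 3 days, a difference of -0.22, and 0.01 and 0.32 at PMA 8 days, a difference of -0.31. With the median over probe sets they were 0.04 at PMA 3 days and 0.03 at PMA 8 days, with the sign turned. Of the 6 genes PSMB7 alone has a second probe set, so its dim one accounts for this turn.

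**Figure D2:**
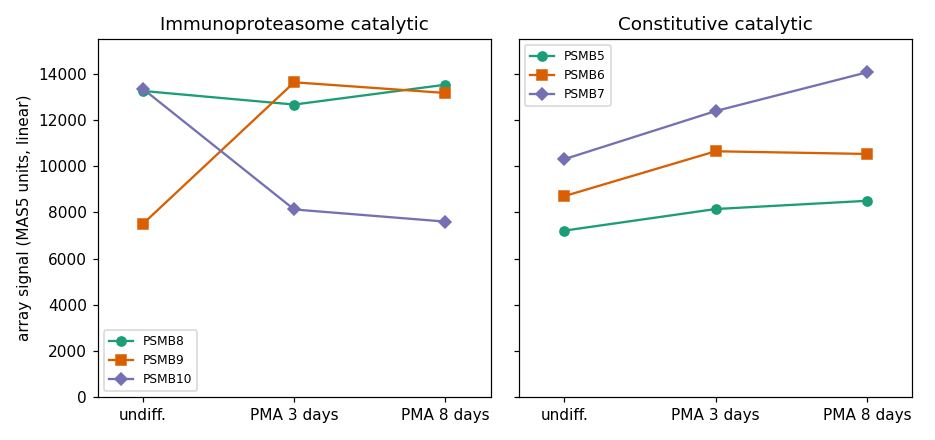
Array signal (vertical axis, linear MAS5 units) of the catalytic subunit genes on the 3 arrays (horizontal axis), 1 point per array, with no replicates. PSMB9 is higher and PSMB10 lower on both PMA arrays, PSMB8 lies between 12660 and 13519 on all, and PSMB5, PSMB6 and PSMB7 lie slightly higher on the PMA arrays.

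The non-catalytic core subunits differed little. The 6 measured alpha-ring genes (PSMA1, PSMA2, PSMA3, PSMA4, PSMA5 and PSMA7) had signals between 12307 and 22752 and log2 ratios between -0.34 and 0.14 at PMA 3 days and between -0.26 and 0.19 at PMA 8 days. PSMA7 had the lowest log2 ratio of them at both times, with 20246 units in undifferentiated cells, 15945 at PMA 3 days and 16953 at PMA 8 days. The structural beta subunits PSMB1, PSMB2, PSMB3 and PSMB4 had signals between 12739 and 43410 and log2 ratios between -0.24 and -0.00 over both times. All 4 were slightly below 0, but 2 of them were above it after centring on all genes, so their direction depends on the scaling. By the brightest probe set none of these 10 genes was past the probe-set SD. A dimmer probe set of PSMA2 was, with 2207 units in undifferentiated cells, 1182 at PMA 3 days and 1375 at PMA 8 days. Its log2 ratios were -0.90 at PMA 3 days and -0.68 at PMA 8 days. Also past it were dim probe sets of PSMB2 at both times and of PSMB4 at PMA 8 days (-0.49).

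The PSMC and PSMD subunits of the 19S cap had a slightly higher median log2 ratio than the core subunits. Over the 14 measured it was 0.11 at PMA 3 days and 0.27 at PMA 8 days, while over the 13 measured core subunits without the immunoproteasome it was -0.05 and -0.00. At PMA 8 days 12 of these 14 cap subunits were above 0, where 45.1% of all genes were. Under the other scalings between 11 and 13 of the cap subunits were above 0. The share of all genes above 0 was not counted there. Their median was -0.03 after quantile normalization and -0.09 after scaling to the poly-A controls. These counts rest on the brightest probe sets. At PMA 8 days PSMC2, PSMD11 and PSMD12 each had another probe set below 0, while the further measured ones of PSMD1 and PSMD4 were above 0. At PMA 3 days 10 of 14 were above 0 (42.4% of all genes). After quantile normalization it was 7 of 14, with the median of all genes at -0.05. After scaling to the poly-A controls it was 4 of 14, with that median at -0.39. These figures leave out the cap subunits SEM1 and ADRM1, which bear other names: SEM1 had log2 ratios of -1.03 at PMA 3 days and -0.65 at PMA 8 days, and ADRM1, a ubiquitin receptor, -0.12 and 0.44. Of the ATPases, which unfold substrates, PSMC2 had 14528 units in undifferentiated cells, 21494 at PMA 3 days and 23325 at PMA 8 days (log2 ratios 0.57 at PMA 3 days and 0.68 at PMA 8 days). PSMC4, another ATPase, had 2401 units in undifferentiated cells, 3850 at PMA 3 days and 3612 at PMA 8 days (0.68 at PMA 3 days and 0.59 at PMA 8 days). PSMC1, PSMC3 and PSMC6 had log2 ratios between -0.31 and 0.18. PSMC3 was lower on the PMA 3 days array alone, with 8045 units in undifferentiated cells, 6484 at PMA 3 days and 8045 at PMA 8 days.

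Among the scaffold subunits of the cap base, PSMD1 had 4988 units in undifferentiated cells, 6334 at PMA 3 days and 8065 at PMA 8 days, which is 1.62-fold at the later time. Its second probe set had log2 ratios of 0.14 at PMA 3 days and 0.43 at PMA 8 days, where the brightest had 0.34 and 0.69. PSMD2, the other scaffold subunit, had 7906 units in undifferentiated cells, 7493 at PMA 3 days and 9644 at PMA 8 days. The ubiquitin receptor PSMD4 had 16809 units in undifferentiated cells, 17099 at PMA 3 days and 17199 at PMA 8 days. In the lid, PSMD11, whose abundance raises proteasome assembly in human embryonic stem cells, had 5478 units in undifferentiated cells, 8040 at PMA 3 days and 8244 at PMA 8 days (log2 ratios 0.55 at PMA 3 days and 0.59 at PMA 8 days). The deubiquitinase PSMD14 had 11098 units in undifferentiated cells, 11291 at PMA 3 days and 13257 at PMA 8 days. The lid subunit PSMD8 had 7738 units in undifferentiated cells, 8911 at PMA 3 days and 10104 at PMA 8 days. PSMD3, PSMD6 and PSMD12 had log2 ratios between -0.11 and 0.29 over both times. PSMD3 was the member with the lowest ratio between the PMA arrays, with 2352 units at PMA 8 days and 2857 at PMA 3 days (log2 ratio -0.28).

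**Figure D3:**
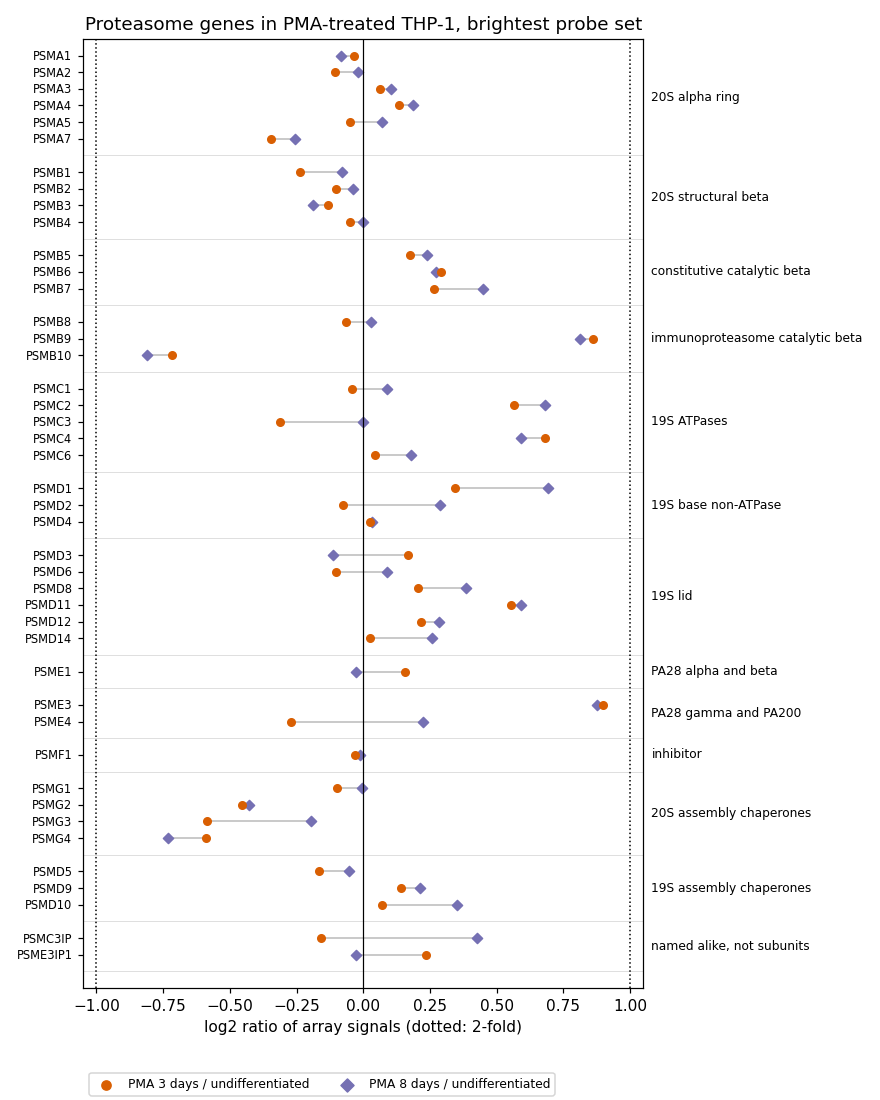
Log2 ratio of array signals (horizontal axis) for the 43 measured genes (rows, grouped by role) at PMA 3 days (circles) and PMA 8 days (diamonds) over undifferentiated cells, 1 array each. All points lie inside the dotted 2-fold lines, and PSMB9, PSMB10 and PSME3 lie farthest from 0.

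The alternative caps differed from each other. PSME1, the interferon-inducible alpha subunit of PA28, had 11760 units in undifferentiated cells, 13107 at PMA 3 days and 11534 at PMA 8 days (log2 ratios 0.16 at PMA 3 days and -0.03 at PMA 8 days). PSME3, the nuclear PA28 gamma, had 978 units in undifferentiated cells, 1823 at PMA 3 days and 1796 at PMA 8 days by its brightest probe set. This was 1.86-fold at PMA 3 days and 1.84-fold at PMA 8 days, the largest ratio over undifferentiated of any member. Its other 3 probe sets were above the floor on all arrays, and their log2 ratios lay between -0.13 and 0.33 at PMA 3 days and between -0.33 and 0.74 at PMA 8 days. PSME4, the cap PA200, had 3630 units in undifferentiated cells, 3006 at PMA 3 days and 4241 at PMA 8 days by its brightest probe set. This was lower than undifferentiated at PMA 3 days (log2 ratio -0.27) and higher at PMA 8 days (0.22). The second probe set was lower at both times (-0.31 at PMA 3 days and -0.24 at PMA 8 days). The third changed sign like the brightest (-0.57 at PMA 3 days and 0.42 at PMA 8 days). The ratio of PMA 8 days over PMA 3 days for PSME4 was 0.50 on the log2 scale by the brightest probe set, 0.07 by the second and 1.00 by the third. By its brightest probe set the inhibitor PSMF1 had 3034 units in undifferentiated cells, 2966 at PMA 3 days and 3006 at PMA 8 days. The log2 ratios of this probe set were -0.03 and -0.01. Those of its other 3, dimmer probe sets lay between -0.03 and 0.56 at PMA 3 days and between 0.06 and 0.42 at PMA 8 days. The value of 0.56 was past the probe-set SD.

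Of the chaperones that assemble the core, all 4 had log2 ratios below 0 at both times, except that PSMG1 turned slightly positive after centring on all genes. Of all genes, 7657 of 13306 were below 0 at PMA 3 days and 7443 of 13555 at PMA 8 days. PSMG4 had 1613 units in undifferentiated cells, 1072 at PMA 3 days and 970 at PMA 8 days (log2 ratios -0.59 at PMA 3 days and -0.73 at PMA 8 days). PSMG2, which pairs with PSMG1, had 17114 units in undifferentiated cells, 12501 at PMA 3 days and 12728 at PMA 8 days (-0.45 at PMA 3 days and -0.43 at PMA 8 days). PSMG3, the partner of PSMG4, was lower at PMA 3 days than at either other point, with 2232 units in undifferentiated cells, 1489 at PMA 3 days and 1947 at PMA 8 days (-0.58 at PMA 3 days and -0.20 at PMA 8 days). PSMG1 had 5377 units in undifferentiated cells, 5018 at PMA 3 days and 5357 at PMA 8 days (-0.10 at PMA 3 days and -0.01 at PMA 8 days). The median was -0.52 at PMA 3 days and -0.31 at PMA 8 days, and -0.40 and -0.24 after centring. After scaling to the poly-A controls it was -0.82 at PMA 3 days, with 3 of the 4 past 1.5-fold lower, and -0.33 at PMA 8 days. That scaling put the median of all genes at -0.39 at PMA 3 days and -0.09 at PMA 8 days. The share of all genes past 1.5-fold lower under it was not counted. The chaperones of the cap base (PSMD5, PSMD9 and PSMD10) lay between -0.17 and 0.35. Of the 2 genes that only share the name, PSMC3IP, a recombination factor, had 1325 units in undifferentiated cells, 1188 at PMA 3 days and 1780 at PMA 8 days. PSME3IP1 had 3599 units in undifferentiated cells, 4235 at PMA 3 days and 3530 at PMA 8 days. PSMC3IP had the largest ratio between the PMA arrays (log2 ratio 0.58 for PMA 8 days over PMA 3 days).

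The PMA arrays were close to each other. For PMA 8 days over PMA 3 days the log2 ratios of the members lay between -0.28 and 0.58, and 38 of 43 (88.4%) were within 1.25-fold, against 67.2% of all genes. Above 0 were 32 of 43 (74.4%), against 54.7% of all genes. Scaling to the poly-A controls put all 43 above 0 and shifted the median of all genes to 0.30. After centring on all genes it was 29 of 43.

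Probe sets of the same gene differed from each other. Of the 87 probe sets 74 were above the floor on all arrays, and 19 genes had at least 2 of these. Within these genes the SD of a log2 ratio was 0.35 for PMA 3 days and 0.36 for PMA 8 days over undifferentiated. The SD of the log2 ratios between members was 0.35 at both times. It was taken over the brightest probe sets alone, while the SD within genes includes dim ones, so these values cannot be compared directly. All probe sets of a gene had the same sign in 13 of the 19 genes at PMA 3 days and in 10 of 19 at PMA 8 days. PSMD11 was among those that did not: its second, dimmer probe set had log2 ratios of -0.54 at PMA 3 days and -0.42 at PMA 8 days. PSMD12 was another: its second probe set had -0.27 at PMA 3 days and -0.39 at PMA 8 days, where the brightest had 0.21 and 0.29. For PSMC2 the other 2 probe sets lay between -0.13 and 0.04 over both times. PSMB2 had log2 ratios of -0.10 and -0.04 by its brightest probe set, and a dim one gave 495 units in undifferentiated cells, 182 at PMA 3 days and 283 at PMA 8 days.

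**Figure D4:**
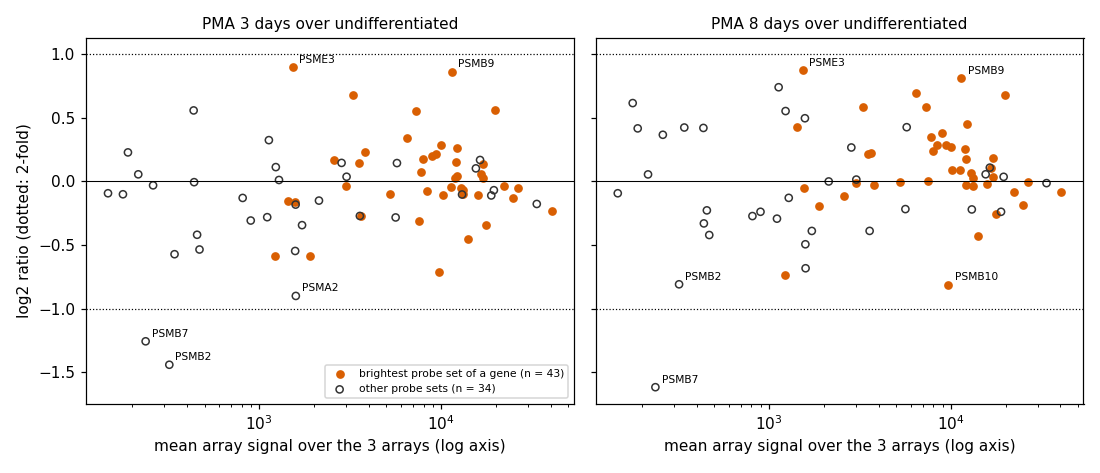
Log2 ratio at PMA 3 days (left) and PMA 8 days (right) over undifferentiated cells for each probe set of the 44 genes that was above the floor on at least 1 array, against its mean signal over the 3 arrays (log axis). Filled points are the brightest probe set of a gene and open points the others. The probe sets past the dotted 2-fold lines are dim ones of PSMB2 and PSMB7.

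Among proteins of the proteasome outside this gene family, 1 of 9 measured was past 2-fold at PMA 3 days and none at PMA 8 days. After centring on all genes none was at PMA 3 days either. SEM1, the smallest lid subunit, had 9749 units in undifferentiated cells, 4764 at PMA 3 days and 6215 at PMA 8 days, 2.05-fold lower at PMA 3 days and 1.57-fold lower at PMA 8 days, where the background of lower genes at 2-fold was 10.7% and 8.49%. POMP, the chaperone that matures the core and is needed for immunoproteasome assembly, had 19220 units in undifferentiated cells, 24299 at PMA 3 days and 27093 at PMA 8 days (log2 ratios 0.34 at PMA 3 days and 0.50 at PMA 8 days). Of 9 measured genes for ubiquitin, its activating enzymes and its shuttling factors, none was past 2-fold, and UBB, a ubiquitin precursor, had 72231 units in undifferentiated cells, 63663 at PMA 3 days and 63113 at PMA 8 days.

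Of 5 measured regulators of proteasome genes 4 were higher on both PMA arrays, where 42.4% of all genes were above 0 at PMA 3 days and 45.1% at PMA 8 days. Past 2-fold was 1 of the 5 at PMA 3 days, against 10.4% of all genes higher, and this count was 0 after scaling to the poly-A controls, 2 after quantile normalization and 3 after centring. At PMA 8 days none was past 2-fold, against 9.83%, but 1 was after quantile normalization and 2 were after centring. The share of all genes past 2-fold under these scalings was not counted. NFE2L1, the factor that raises proteasome genes when proteasomes are blocked, had 3630 units in undifferentiated cells, 7630 at PMA 3 days and 7144 at PMA 8 days (2.10-fold at PMA 3 days and 1.97-fold at PMA 8 days). NFE2L2, the oxidative stress factor, had 10875 units in undifferentiated cells, 20326 at PMA 3 days and 18859 at PMA 8 days (1.87-fold at PMA 3 days and 1.73-fold at PMA 8 days). NLRC5, a co-activator of MHC class I genes and of PSMB9, had 2124 units in undifferentiated cells, 4186 at PMA 3 days and 4211 at PMA 8 days (1.97-fold at PMA 3 days and 1.98-fold at PMA 8 days). IRF1, an interferon-induced factor of immunoproteasome genes, had 953 units in undifferentiated cells, 1241 at PMA 3 days and 1603 at PMA 8 days (1.30-fold at PMA 3 days and 1.68-fold at PMA 8 days). NGLY1, which processes NFE2L1, had 5691 units in undifferentiated cells, 4540 at PMA 3 days and 4501 at PMA 8 days. The same count, 4 of 5, was above 0 at both times under the other 3 scalings. The share of all genes above 0 was not counted there. DDI2 was not analysed here.

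Genes that supply MHC class I molecules with peptides, or encode and load these molecules, included larger differences, up to 4.22-fold. Of 13 measured, 5 were past 2-fold higher at PMA 3 days and 4 at PMA 8 days, where 10.4% and 9.83% of all genes were, and none was lower, with a median log2 ratio of 0.64 and 0.54. After scaling to the poly-A controls 3 were past 2-fold higher at PMA 3 days, and the share of all genes was not counted. TAP1, a subunit of the peptide transporter, had 2284 units in undifferentiated cells, 9273 at PMA 3 days and 9630 at PMA 8 days, which is 4.06-fold at PMA 3 days and 4.22-fold at PMA 8 days. In the gene order of GRCh38.p14, TAP1 lies between PSMB8 and PSMB9 with the antisense gene PSMB8-AS1, and TAP2 lies on the other side of PSMB8. TAP2 had 2430 units in undifferentiated cells, 5343 at PMA 3 days and 5936 at PMA 8 days (2.20-fold at PMA 3 days and 2.44-fold at PMA 8 days). Of these 4 neighbouring protein-coding genes, TAP1, TAP2 and PSMB9 were thus higher on both PMA arrays and PSMB8 was not. The aminopeptidase ERAP1, which trims peptides made by the proteasome, had 3908 units in undifferentiated cells, 9500 at PMA 3 days and 7010 at PMA 8 days (2.43-fold at PMA 3 days and 1.79-fold at PMA 8 days), and HLA-E (2.55-fold at PMA 3 days and 2.23-fold at PMA 8 days) and HLA-F (3.30-fold at PMA 3 days and 2.90-fold at PMA 8 days) were higher too. B2M, the class I light chain, had 83542 units in undifferentiated cells, 71383 at PMA 3 days and 81069 at PMA 8 days.

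**Figure D5:**
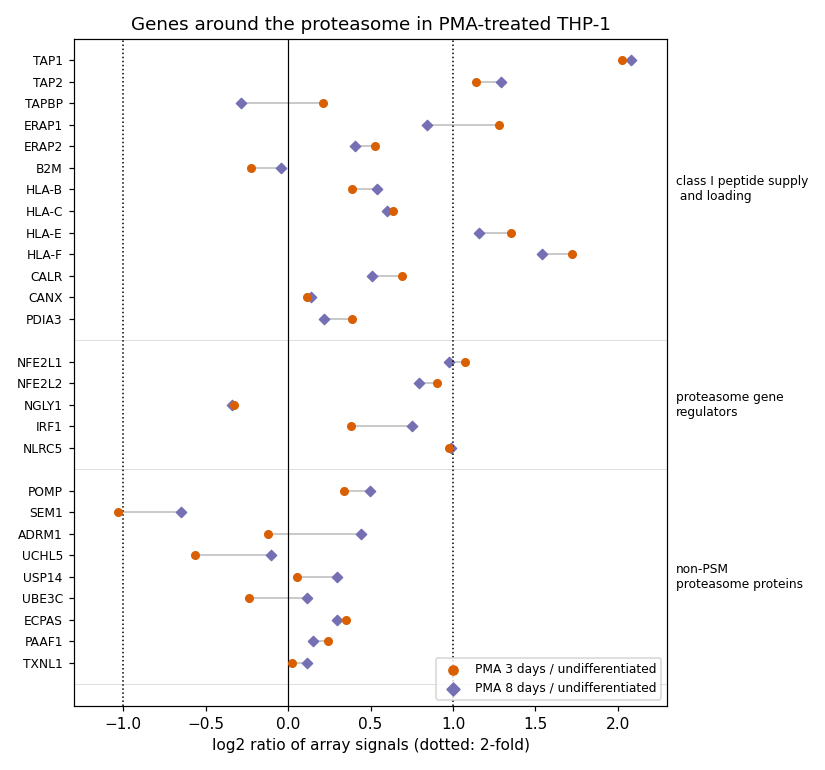
Log2 ratio at PMA 3 days (circles) and PMA 8 days (diamonds) over undifferentiated cells for genes of class I peptide supply, regulators of proteasome genes and proteasome proteins outside the PSM family (rows). TAP1 lies near 2 at both times, and SEM1 is the one gene beyond the 2-fold line on the lower side.

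The promoter motifs were counted for all members with a window in the RefSeq promoter table, whose windows hold 300 bases around a start. Of the 44 genes 38 had a window, 47 windows in all. The paired GAAA motif was present in 6 of 47 windows (12.8%) on either strand, against 3.57% of all 35116 windows. The 6 genes were PSMB8, PSMB10, PSME1, PSMA4, PSMB4 and PSMG4. Their log2 ratios lay between -0.72 and 0.16 at PMA 3 days, with 2 above and 4 below 0, and between -0.81 and 0.19 at PMA 8 days, again with 2 above and 4 below. Of the 31 measured members with a window and no match, 16 were above and 15 below 0 at PMA 3 days, and 20 above and 11 below at PMA 8 days. Above 0 were 42.4% of all genes at PMA 3 days and 45.1% at PMA 8 days. PSMB9, the immunoproteasome gene that was higher, had no match, and PSMB10, which was lower, had one close to its start. TGACNNNGC, a core of the site for NFE2L1 and NFE2L2, was in 13 of 47 windows (27.7%), against 13.3% of all windows. CCAAT was in 21 of 47 (44.7%), against 34.6%, and TTCNNNGAA in 8 of 47 (17.0%), against 7.66%. Windows of 1 gene can overlap, and a match describes letters and no bound factor.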

How the data were processed

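Labelled cRNA from 200 ng of total RNA was hybridised to 1 array for each of 3 conditions, per the labels' protocols. The deposited intensity values were made by the authors with MAS5, per the submitters' processing notes (version, settings and scaling target: not given in the sources used here). From the values the scale was read as linear: no value is negative, the means without the highest and lowest 2% are 1000.1 on every array, and the medians are 161, 139 and 151 in order of time in culture. Arrays give no read depth, so the number of arrays limits the precision.

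Of 54675 probe sets, 62 controls were set aside and 41091 had 1 gene in the platform table. Entrez IDs matched 41037 of these to the RefSeq gene table (GRCh38.p14) and changed 0 symbols, and that table was used for names and gene order. Of the probe sets with a matching name, 5 listed with a second gene and 10 of 6 antisense or divergent genes were left out. The probe set with the highest mean signal stood for a gene, signals under the median (149.8) were raised to it, and log2 ratios were called at 2-fold. Named in full were the catalytic subunits, PSME genes, PSMF1, and the 3 highest and 3 lowest ratios per comparison; genes past 1.5-fold and others were added after their values were seen. Members, lists and tests were chosen with earlier results of these data known. Protein sequences were not used here. Alternatives were 3 floors, 3 ways to use probe sets, 3 scalings, a 1.5-fold threshold and leaving out PSMC3IP and PSME3IP1. The steps were tested on simulated data. Python 3.11.15, numpy 2.4.6, pandas 2.3.3 and matplotlib 3.10.9 were used.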

Additional observations from a re-analysis of the deposited data

How the results depend on the processing

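With 1 array per condition nothing could be left out, and no paired analysis was possible because no condition has replicates. Of 435 recomputed log2 ratios of 18 named members, 400 stayed within the probe-set SD of the value given, 35 moved by more and none that was past 2-fold changed sign, since none was past it. Many of the 400 could not have moved. All 18 members were brighter than every floor tried, and centring shifted all ratios by less than the probe-set SD. A gene with 1 probe set keeps its value under the median over probe sets. Of the 35, 18 came from scaling to the poly-A controls, 9 from the second-brightest probe set and 7 from the median over probe sets; floors, quantile normalization and centring moved none. The 18 are all named members in PMA 8 days over PMA 3 days, where that scaling shifts every ratio by 0.29, more than the probe-set SD of 0.27; elsewhere the cause was not tested. Against counts of 0 at 2-fold, centring gave 1 member higher at PMA 3 days over undifferentiated. In the same comparison the second-brightest probe sets, scaling to the poly-A controls and leaving out _x_at and _s_at probe sets each gave 1 lower, and the second-brightest also gave 1 lower at PMA 8 days. Lowering the threshold to 1.5-fold gave 3 higher and 2 lower at PMA 3 days, and 6 higher and 2 lower at PMA 8 days. Further alternatives on these counts were added after the data were seen. For members higher at PMA 3 days (3) the second-brightest probe sets gave 0, centring 5 and poly-A scaling 1. For those higher at PMA 8 days (6) the second-brightest, the median over probe sets and leaving out _x_at and _s_at probe sets each gave 2, with 21, 43 and 29 members measured. For PMA 8 days over PMA 3 days (0) the second-brightest gave 1, poly-A scaling 6 and leaving out _x_at and _s_at probe sets 1. For members lower at PMA 3 days (2) quantile normalization and centring each gave 1 and poly-A scaling 6. The share of all genes past either threshold was not counted under these alternatives, so the counts have no background beside them. Poly-A scaling put the median of all genes at -0.39 for PMA 3 days over undifferentiated. The median of the members for PMA 8 days over PMA 3 days became 0.36 under poly-A scaling, with that of all genes at 0.30. The difference between immunoproteasome and constitutive subunits could not be given with second-brightest probe sets or without _x_at and _s_at ones, as subunits lacked such a probe set.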

Other observations

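Antisense genes named after proteasome subunits were left out of the counts above, and their values are given beside those of the genes they are named after. PSMB8-AS1, next to PSMB8, had 8819 units in undifferentiated cells, 4302 at PMA 3 days and 3652 at PMA 8 days by its brighter probe set, 2.05-fold and 2.42-fold lower, and 192 units in undifferentiated cells, 200 at PMA 3 days and 240 at PMA 8 days by its dimmer one. PSMB8 had log2 ratios of -0.07 at PMA 3 days and 0.03 at PMA 8 days. PSMA3-AS1 had 3133 units in undifferentiated cells, 1641 at PMA 3 days and 1653 at PMA 8 days, 1.91-fold and 1.90-fold lower, and its other 2 probe sets were lower too, with log2 ratios between -1.81 and -0.90 over both times. PSMA3 had 15913 units in undifferentiated cells, 16606 at PMA 3 days and 17121 at PMA 8 days by its brightest probe set. PSMD6-AS2 had 1068 units in undifferentiated cells, 513 at PMA 3 days and 545 at PMA 8 days by its brighter probe set, and 195 in undifferentiated cells, 310 at PMA 3 days and 146 at PMA 8 days by the dimmer one. PSMD6 had 10194 units in undifferentiated cells, 9489 at PMA 3 days and 10849 at PMA 8 days. PSMG3-AS1 had 585 units in undifferentiated cells, 464 at PMA 3 days and 582 at PMA 8 days, and PSMG3 had log2 ratios of -0.58 at PMA 3 days and -0.20 at PMA 8 days. The remaining 2 such genes were below the floor on every array. At PMA 3 days 10.7% of all genes were past 2-fold lower and at PMA 8 days 8.49%. These genes were singled out after their values were seen.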
